A study of Rattus norvegicus with 6 samples.

Results

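Insulin-like growth factor (IGF) signalling was examined in crushed and intact rat sciatic nerves through 10 genes, chosen by name: the ligands Igf1 and Igf2, the receptors Igf1r and Igf2r, and the binding proteins Igfbp2, Igfbp3, Igfbp4, Igfbp5, Igfbp6 and Igfbp7. All 10 were among the 30957 Ensembl genes of the deposited table, and 6 of them had enough counts to be compared between the groups. The 6 libraries came from sciatic nerves of Sprague Dawley rats, 3 labelled as injured and 3 as normal, described as biological replicates. According to the methods the animals were adult males, the injured nerves were crushed with forceps and a piece of the proximal stump was taken 4 days postinjury (dpi), and the control was the intact nerve of the opposite side. The labels give no time point, no age and no animal for a nerve. By the methods, a control nerve therefore came from an operated rat, and no nerve of an unoperated rat was included. The labels cannot show this. The methods include a digestion with RNase R, which removes linear RNA, and this step is not in the extraction protocol of the labels. The sources disagree on the side of the injury, which is the right in the series design, whereas the methods give a right incision and a crush of the left nerve.

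IGF ligands are secreted peptides that bind the receptor tyrosine kinase encoded by Igf1r, which acts through IRS adaptor proteins and the PI3K-AKT-mTOR pathway on growth and survival. The receptor encoded by Igf2r has no kinase domain, takes up and degrades IGF-II, and also carries mannose 6-phosphate-tagged enzymes to lysosomes. Binding proteins hold IGF ligands outside the cell, prolong their lifetime or keep them from the receptor, and are opened by proteases. In peripheral nerve, IGF ligands are known as survival and growth factors for Schwann cells and regrowing axons.

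Counts on genes summed to between 24844371 and 27139360 per nerve. A level of 3 counts, taken as the smallest that could be told from 0, was between 0.110 and 0.121 normalized CPM. Normalized CPM are counts scaled to library size with TMM factors. Several defining markers of nerve tissue were at or near 0. Of 13 Schwann cell genes, Mag and Cdh19 had 0 counts in every nerve, and the myelin gene Mbp, Sox10 and S100b had at most 3 in any nerve, while 6 of the 13 passed the filter, Pmp22 with 821 to 968 and Prx with 590 to 690 counts the highest. Of 12 macrophage genes, 6 had 0 counts in every nerve, among them Ptprc, Adgre1 and C1qa. Of 9 fibroblast genes, Col1a2, Dcn, Lum and Postn had 0 counts in every nerve, and the other 5 passed the filter, with Thy1 at 124 ± 4.61, Pdgfra at 46.6 ± 3.33 and Col1a1 at 20.1 ± 0.455 CPM in intact nerves (SD, n = 3). The proliferation gene Mki67 had between 37037 and 43837 counts. The marker lists of the labelled tissue were thus detected in part, and group names below are those of the labels.

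Among the 10 genes, expression was carried by both receptors and by Igfbp4 and Igfbp6, and both ligands were at or near 0. In crushed nerves Igfbp4 fell by 33.8% and Igfbp6 fell by 31.6%, while Igf1r, Igf2r, Igfbp5 and Igfbp7 did not pass the test. No member was called higher in crushed nerves. Of the 6 members tested, 2 had an adjusted p under 0.05 and were lower, against 1.65% of all 12393 genes tested, and 0 were higher, against 1.47% of all genes (quasi-likelihood test of edgeR, adjusted over all genes by Benjamini-Hochberg). At an unadjusted p under 0.05 the members numbered 2 lower and 0 higher, against 9.5% and 6.71% of all genes. DESeq2 also called 2 lower and 0 higher (2.57% and 1.9% of all genes), as did limma (0.694% and 1.26%). The limits of the study's methods were an absolute log2 fold change above 1 and p under 0.001, read here as unadjusted. Under these limits 0 of the 6 members were called with edgeR, DESeq2 or limma, against 0.282%, 0.189% and 0.218% of all genes with these tools.

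Levels of different genes were compared per length, with the authors' FPKM (fragments scaled to gene length and to library size). Igf2r was the highest member, with 85.8, 90.8 and 91.5 FPKM in intact nerves 1, 2 and 3, against 90.2, 90.6 and 90.0 FPKM in crushed nerves 1, 2 and 3. Next came Igf1r, with 70.0, 64.1 and 68.4 FPKM in intact and 65.7, 63.8 and 63.1 FPKM in crushed nerves. Every nerve thus had more Igf2r than Igf1r per length, with a ratio of 1.23 to 1.42 in intact and 1.37 to 1.43 in crushed nerves.

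Igfbp4 followed with 56.4 ± 1.63 FPKM (SD, n = 3) in intact and 37.7 ± 0.628 FPKM in crushed nerves. Its mean over the 6 nerves exceeded that of 83.6% of the genes tested, and that of Igf1r 88.8%. Igfbp6 had 20.8 ± 0.735 FPKM in intact and 14.4 ± 0.928 FPKM in crushed nerves, and then Igfbp7 with 3.37 ± 0.429 and 3.46 ± 0.630 FPKM. Igfbp5 was far lower, between 0.0671 and 0.158 FPKM in the 6 nerves. From Igf2r down to Igfbp5 the ranges of neighbours in this order did not overlap in either group. Below Igfbp5 the order had no meaning, since Igfbp3, Igf2, Igf1 and Igfbp2 overlapped at 0.

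**Figure D1:**
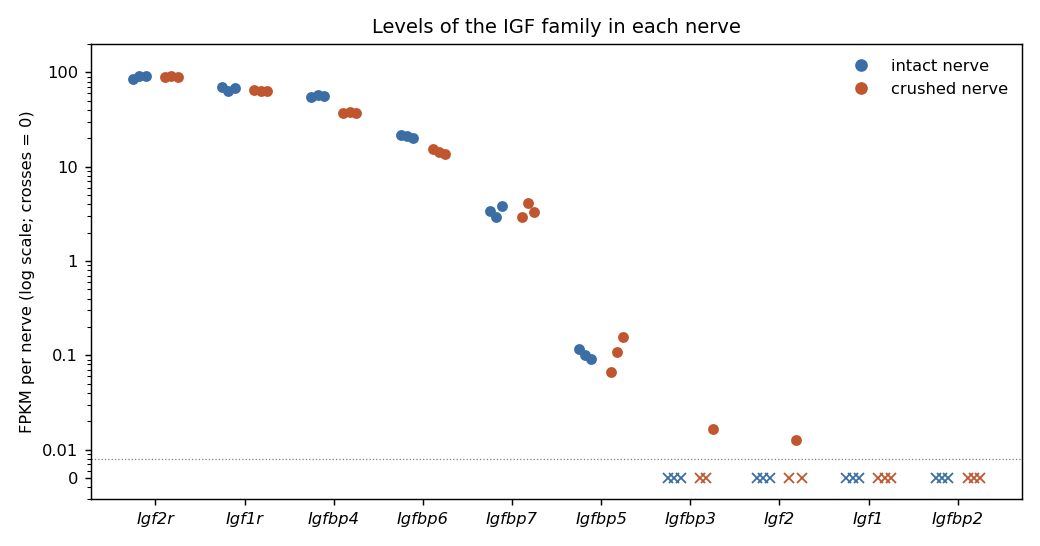
FPKM (log scale) of each of the 10 members in each nerve, ordered by the mean over the 6 nerves, with blue points for the 3 intact and orange points for the 3 crushed nerves. Values of 0 are drawn as crosses on a separate line under the scale. Igf2r, Igf1r, Igfbp4 and Igfbp6 lie between 13.5 and 91.5 FPKM, and Igf1 and Igfbp2 are at 0 in all nerves.

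The ligands were not detectable in these libraries, in which the markers Dcn, Lum, Col1a2 and Ptprc also had 0 counts in every nerve. Whether the missing ligands and the missing markers have a common cause was not tested. These values therefore do not give the ligand level of sciatic nerve in general. For Igf1, located on chromosome 7 (28412198 to 28486609), the count was 0 in all 6 nerves, which allows a level of up to 0.121 normalized CPM in a nerve. Coordinates are those of the deposited table, and the submitters' processing notes name the build Rnor_6.0. Igf2, on chromosome 1 from 215828102 to 215846911, had 2 counts in crushed nerve 2 and 0 in each of the other nerves. Both groups were at or under the floor of 3 counts for both ligands, so no fold change is given and a difference could not be seen.

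The receptors were well covered and their differences were small. Igf1r, on chromosome 1 from 128924966 to 129206516, had 290, 265 and 281 normalized CPM in intact nerves, in the order of their numbers, against 268, 260 and 257 in the crushed ones. Intact nerve 2 lay below crushed nerve 1, so the groups overlapped. The log2 fold change (crushed minus intact) was -0.09 (SE 0.0437, 95% interval -0.19 to 0.0069, edgeR adjusted p = 0.353). A fall in Igf1r larger than 0.19 on the log2 scale lay outside this interval, as did any rise above 0.0069.

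Igf2r, on chromosome 1 from 48176106 to 48264477, had 761, 802 and 807 normalized CPM in intact and 787, 793 and 786 in crushed nerves. The crushed nerves lay inside the range of the intact nerves. Its log2 fold change was -0.0021 (SE 0.0369, 95% interval -0.08 to 0.08, edgeR adjusted p = 0.984). A small nucleolar RNA gene, SNORA40, shares 132 bases with Igf2r and had between 25 and 43 counts, against at least 19258 for Igf2r.

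Igfbp4, which encodes a binding protein known mainly for keeping IGF ligands from the receptor, lies on chromosome 10 from 86950557 to 86962578. In intact nerves 1, 2 and 3 its counts were 3055, 3358 and 3027, and in crushed nerves 1, 2 and 3 they were 2209, 2262 and 2023. Scaled to library size, these were 121, 127 and 122 CPM in intact and 80.9, 83.3 and 80.7 CPM in crushed nerves. All 3 crushed nerves lay below all 3 intact nerves, with a wide gap and little spread within either group.

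The mean of Igfbp4 was 123 ± 3.43 CPM in intact and 81.7 ± 1.45 CPM in crushed nerves (SD, n = 3 each). Its log2 fold change was -0.60 (SE 0.0430, 95% interval -0.69 to -0.50, edgeR adjusted p = 2.66e-05). Among the 205 genes that fell, Igfbp4 ranked 2 by p and 29 by the size of the change, and the median log2 fold change of those genes was -0.36. The exact permutation test on its CPM gave p = 0.1 (two-sided), the smallest p that 3 nerves against 3 allow. In bulk libraries fewer cells of an expressing type and less RNA per cell cannot be told apart.

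Igfbp6, which encodes a binding protein with a preference for IGF-II, lies on chromosome 7 from 143749221 to 143754054. Its counts were 587, 594 and 532 in intact and 445, 415 and 359 in crushed nerves, or 23.2, 22.5 and 21.5 against 16.3, 15.3 and 14.3 normalized CPM. Again no crushed nerve reached the lowest intact nerve. Lack of overlap with crushed nerves lower, as in Igfbp4 and Igfbp6, was found in 12.2% of all genes tested, and with crushed nerves higher in 10.8%.

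The mean of Igfbp6 was 22.4 ± 0.868 CPM in intact and 15.3 ± 0.984 CPM in crushed nerves (SD, n = 3 each). The log2 fold change of Igfbp6 was -0.55 (SE 0.0766, 95% interval -0.72 to -0.38, edgeR adjusted p = 0.00249). The exact permutation test gave p = 0.1, again the smallest p possible. The ratio of Igfbp4 to Igfbp6 in FPKM was 2.56 to 2.80 in intact and 2.44 to 2.77 in crushed nerves, and these ranges overlapped.

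**Figure D2:**
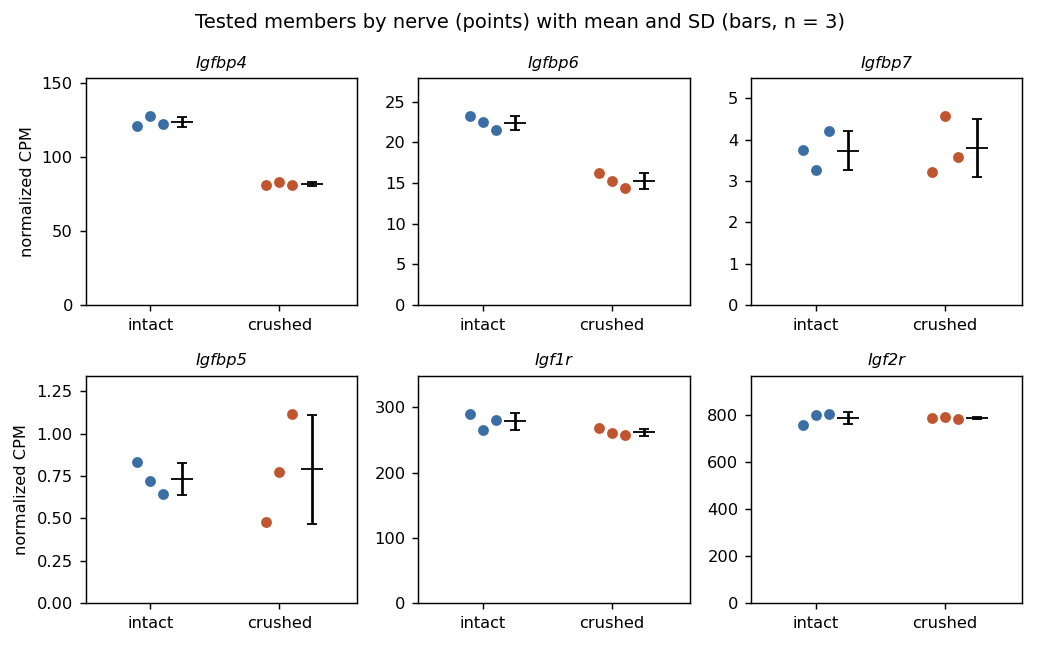
Normalized CPM of the 6 tested members, each panel with its own axis from 0, with 1 point per nerve and the mean with its SD (n = 3) beside the points. The groups are apart in Igfbp4 and Igfbp6 and overlap in Igfbp7, Igfbp5, Igf1r and Igf2r.

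The other binding proteins were low or absent. Igfbp7, which encodes a secreted protein of low affinity for IGF ligands, had between 86 and 104 counts in intact and between 88 and 124 in crushed nerves. The log2 fold change of Igfbp7 was 0.02 (SE 0.164, 95% interval -0.34 to 0.39, edgeR adjusted p = 0.959), and the groups overlapped. Igfbp7 lies on chromosome 14 from 33010300 to 33070190 and shares 113 bases with Polr2b, which had between 2848 and 3275 counts. The counting rule is not given in the sources used here, so the low count of Igfbp7 is uncertain.

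Igfbp5, which encodes a binding protein that also attaches to the extracellular matrix, was counted 21, 19 and 16 times in intact and 13, 21 and 28 times in crushed nerves. Crushed nerves held both the lowest and the highest count. Its log2 fold change was 0.09 (SE 0.324, 95% interval -0.62 to 0.81, edgeR adjusted p = 0.918), so that changes of the size seen in Igfbp4 could not be told from none. It lies on chromosome 9 from 80150211 to 80167033.

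Igfbp2, 5421 bases away from Igfbp5 on chromosome 9 (80118029 to 80144789), had 0 counts in every nerve. Igfbp3, which encodes the main IGF carrier of the blood, lies on chromosome 14 from 87457647 to 87465374 and had 1 count, in crushed nerve 3. Its neighbour Igfbp1, 3861 bases away, had 0 counts in every nerve. Igfals, which encodes the partner of IGFBP3 in blood, had 1 count in 2 of the 6 nerves. No gene of these neighbouring pairs had more than 28 counts in a nerve, and the 2 binding protein genes with high counts, Igfbp4 and Igfbp6, lie on other chromosomes.

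Summed over the 6 binding protein genes, FPKM was 79.9 to 82.1 in intact and 54.3 to 57.1 in crushed nerves. Igfbp4 made up 68.8% to 70.8% of this sum in intact and 67.1% to 68.8% in crushed nerves, and Igfbp6 25.1% to 26.9% and 24.9% to 27.5%. The ratio of Igf1r to the summed binding proteins in FPKM was 0.781 to 0.876 in intact and 1.12 to 1.18 in crushed nerves. These sums and ratios are descriptions of the values above and were not tested.

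The sequences just before the start of Igfbp4 and Igfbp6 are shown because these genes were the members that fell. They are the 250 bases upstream of the start in the RefSeq annotation of the GRCr8 assembly, which is another build than that of the table, at chr10:84491221-84491470 and chr7:135154669-135154918, both on the plus strand. All 10 members had a promoter in that annotation. On both strands, 4 short motifs were searched: the TATA box TATAAA, the CCAAT box CCAAT, the GC box GGGCGG and the AP-1 site TGANTCA. Capitals mark matches.
Igfbp4: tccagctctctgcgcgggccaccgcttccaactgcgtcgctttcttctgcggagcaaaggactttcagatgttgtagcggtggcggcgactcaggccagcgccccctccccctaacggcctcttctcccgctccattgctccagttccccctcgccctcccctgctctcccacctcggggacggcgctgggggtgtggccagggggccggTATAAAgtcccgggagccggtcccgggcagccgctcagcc
Igfbp6: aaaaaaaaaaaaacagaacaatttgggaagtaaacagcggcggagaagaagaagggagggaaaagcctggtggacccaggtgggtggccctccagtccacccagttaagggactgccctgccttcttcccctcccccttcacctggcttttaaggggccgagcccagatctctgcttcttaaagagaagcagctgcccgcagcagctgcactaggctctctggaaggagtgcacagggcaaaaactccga

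Igfbp4 held 1 match, to the TATA box. These motifs were chosen after the values were seen, and a match is a description of letters and not a shown binding site. The letters TATAAA occurred in 12.9% of the 33469 promoters of the same length. Igfbp6 held no match to any of the 4, so none of these motifs was shared by the pair. The CCAAT box was found in 34.0% of all promoters, the GC box in 30.5% and the AP-1 site in 6.34%. The 250 bases of Igf2r held 2 GC boxes, those of Igf1r 1, those of Igfbp2 1 and those of Igfbp7 4. For Igf2, 1 window held 1 GC box and the other window held no match to the 4 motifs. G and C made up 68.8% of the bases of the Igfbp4 window and 54.8% of those of the Igfbp6 window.

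**Figure D3:**
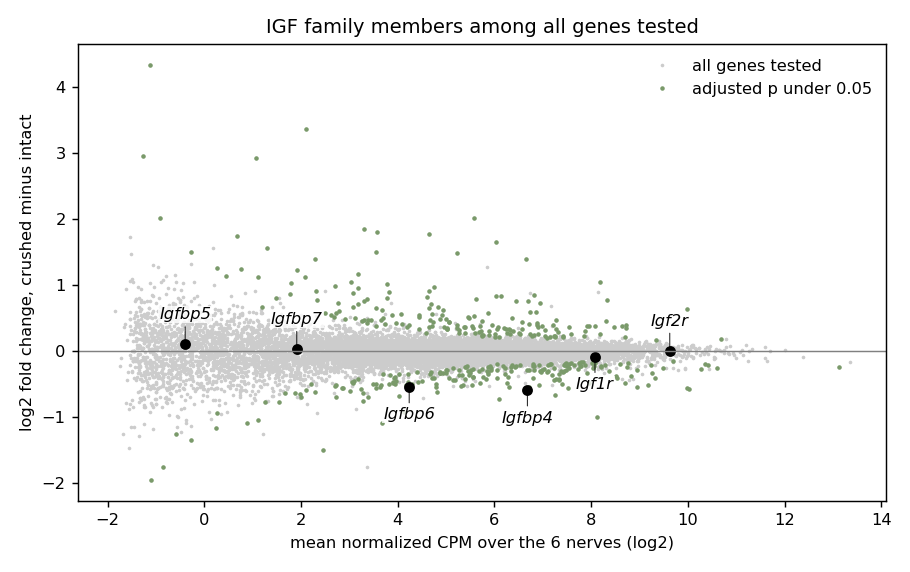
Log2 fold change (crushed minus intact) against the mean normalized CPM (log2) of the 12393 genes tested, in grey, with genes of adjusted p under 0.05 in green and the 6 tested members in black. Igfbp4 and Igfbp6 lie below 0 at -0.60 and -0.55, and the other 4 members lie between -0.09 and 0.09.

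By the distance between centred log2(CPM + 1) profiles over the 6 nerves, the genes most like Igfbp4 among 12392 others were Klhdc8a (root mean square difference 0.0400), Sh3bp5 (0.0502) and Etv1, which encodes an ETS transcription factor (0.0517). Klhdc8a went from 93.6 ± 3.27 to 64.3 ± 2.14 CPM (SD, n = 3 each), and its log2 fold change was -0.54. Since the measure picks genes that drop by a similar amount, their low values in crushed nerves follow from it. Igfbp6 ranked 15 by the same measure, with a difference of 0.0736.

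In genes related to the family, 3 of 73 tested rose, 2 fell and 68 did not pass the test, and 0 met the limits of the study. These genes came from 7 lists chosen by function. Of all genes tested with edgeR, 1.47% rose, 1.65% fell and 0.282% met the limits of the study. Of the related genes, DESeq2 called the same 5 and Plagl1, and limma called C1s alone. Proteases that open binding proteins, with their inhibitors, had 2 of 7 tested genes that rose and 0 that fell, and the median of their log2 fold changes was 0.08, that of all genes tested -0.0017. C1s, a complement protease known to cleave IGFBP5, had 2309, 2432 and 2326 counts in intact and 4273, 4147 and 3721 in crushed nerves. It rose by 65.1%, a log2 fold change of 0.72 (SE 0.0413, edgeR adjusted p = 3.72e-06), with all crushed nerves above all intact nerves.

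Adamts1, a matrix protease, had 16.3 ± 1.5 CPM in intact and 21.5 ± 1.34 CPM in crushed nerves (SD, n = 3 each). Its log2 fold change was 0.40 (edgeR adjusted p = 0.0358). The call was lost without intact nerve 2 or 3 or any 1 crushed nerve, with adjusted p from 0.0597 to 0.160 in these fits. Pappa, the protease known for cleaving IGFBP4, had between 2 and 12 counts per nerve and was not tested.

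Relatives that share the IGFBP domain had 1 gene that rose and 1 that fell among 7 tested, of 13 listed, with a median log2 fold change of -0.07. Ctgf, a matricellular protein of this group, had 471, 459 and 406 counts in intact and 332, 332 and 327 in crushed nerves, a log2 fold change of -0.49 (edgeR adjusted p = 0.00910). Without crushed nerve 1 or crushed nerve 2 the adjusted p of Ctgf was 0.0543 and 0.0542. Htra1, a secreted serine protease, rose from 1548 ± 35.6 to 1747 ± 24.8 CPM, a log2 fold change of 0.17 (edgeR adjusted p = 0.0211). The call of Htra1 was lost without intact nerve 3 or any 1 crushed nerve (adjusted p from 0.0513 to 0.138), and with the replicate block (0.0502).

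Downstream of the receptor, 1 of 35 genes tested fell, 0 rose and 34 did not pass the test, with a median log2 fold change of -0.0035. Irs1, the adaptor that couples IGF and insulin receptors to PI3K, had 1192, 1132 and 1003 counts in intact and 926, 908 and 843 in crushed nerves. It went from 43.5 ± 3.35 to 33.7 ± 0.233 CPM (SD, n = 3 each), a log2 fold change of -0.37 (edgeR adjusted p = 0.0113). Without crushed nerve 1 or crushed nerve 2 the adjusted p of Irs1 was 0.0578 and 0.0618. The related adaptor Irs2 had a log2 fold change of -0.08 (95% interval -0.22 to 0.06, edgeR adjusted p = 0.585).

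**Figure D4:**
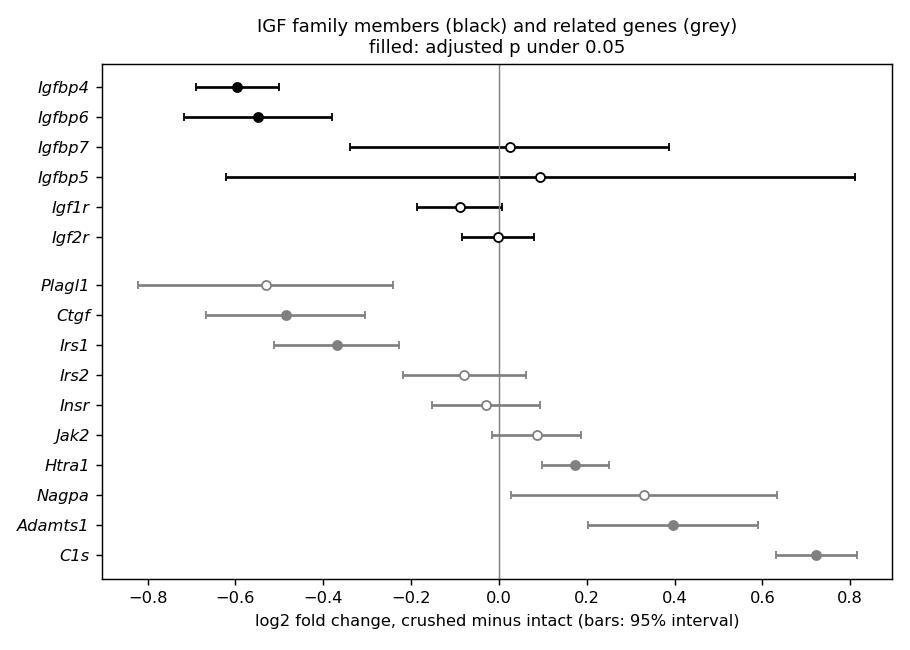
Log2 fold change (crushed minus intact) with its 95% interval for the 6 tested members, in black, and 10 related genes, in grey. Filled points have an adjusted p under 0.05. The intervals of Igfbp4 and Igfbp6 lie below 0, those of the other 4 members include 0, and C1s lies at 0.72.

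In the other lists 0 genes were called in either direction by edgeR or limma, and 1 by DESeq2. Of the insulin and IGF relatives, 1 of 6 was tested, the insulin receptor gene Insr, with a log2 fold change of -0.03 (95% interval -0.15 to 0.09, edgeR adjusted p = 0.842). The 4 growth hormone axis genes tested had a median of 0.03, with 0 at an unadjusted p under 0.05, and the smallest p belonged to Jak2 (log2 fold change 0.09, adjusted p = 0.396). Of 10 imprinted growth genes and regulators of Igf2 mRNA tested, 4 had an unadjusted p under 0.05 and the median was -0.12. All 4 were lower in crushed nerves. Of all genes tested with edgeR, 9.5% were lower and 6.71% higher at an unadjusted p under 0.05. The smallest p of the imprinted list was that of Plagl1, an imprinted zinc finger gene, with a log2 fold change of -0.53 (edgeR adjusted p = 0.0596). Plagl1 passed 0.05 with DESeq2 (adjusted p = 0.0265) and without intact nerve 2 (adjusted p = 0.0329). The 9 genes of mannose 6-phosphate sorting, the route that Igf2r serves, had a median of 0.02, with 1 at an unadjusted p under 0.05, Nagpa (log2 fold change 0.33, adjusted p = 0.267).

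Markers of other cells moved in part with Igfbp4 and Igfbp6. Of the fibroblast list 5 of 9 genes were tested and 2 fell, Col1a1 and Col3a1. Col3a1 had 22, 23 and 21 counts in intact and 10, 3 and 7 in crushed nerves. It passed the filter on low counts only through the intact nerves, so its call is not taken as support. DESeq2 called Col1a1 and Thy1 lower, and limma Col1a1 alone. Pdgfra of this list had 46.6 ± 3.33 CPM in intact and 53.3 ± 2.78 CPM in crushed nerves (edgeR adjusted p = 0.166). The list's summed level was 197 to 211 CPM in intact and 172 to 192 CPM in crushed nerves. Of the pericyte and smooth muscle list 4 of 7 genes were tested and 1 fell, Pdgfrb, with sums of 44.6 to 50.9 and 36.1 to 39.6 CPM. Of the Schwann cell list 6 of 13 genes were tested and 1 fell, Erbb3, with edgeR but not with DESeq2 or limma. The sums of the Schwann cell list were 70.7 to 75.0 and 66.5 to 67.4 CPM. Of all genes tested with edgeR, 1.65% fell. The macrophage list had sums of 3.94 to 5.57 and 4.21 to 6.0 CPM and the endothelial list 4.66 to 5.53 and 3.77 to 5.08 CPM, with 0 genes called by edgeR, DESeq2 or limma and 0 and 1 genes at an unadjusted p under 0.05. Skeletal muscle and adipocyte genes summed to under 1 CPM in every nerve, and the proliferation genes to between 3128 and 3450 CPM, also with 0 called by the 3 tools and 1 gene each of the skeletal muscle and proliferation lists at an unadjusted p under 0.05. The part of these shifts in the fall of Igfbp4 and Igfbp6 was not tested.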

How the data were processed

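RNA-seq libraries of 3 crushed and 3 intact rat sciatic nerves were used. The authors deposited raw counts per Ensembl gene together with FPKM values that follow from those counts, the library total and a length per gene. The submitters' processing notes name HISAT2, StringTie 1.3.0 and Rnor_6.0, and the counting rule, strand setting and annotation release are not given in the sources used here. Each of the 12 value columns carried the title of its nerve, and 0 columns were left over.

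In R 4.3.3, counts were compared by the quasi-likelihood test of edgeR 4.0.16 after TMM scaling and edgeR's filter on low counts, over all 6 nerves without a replicate block, with Benjamini-Hochberg adjustment over the 12393 genes tested. Intervals are at 95% from the standard error and the test's degrees of freedom. Members under the filter are given as counts. Alternatives were the replicate block, DESeq2 1.42.0, RLE factors, library totals alone, no filter, limma 3.58.1 with a trend on log2(FPKM + 0.1), each nerve left out, and CPM per kilobase in place of FPKM. The calculation was tested on simulated data.

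The members, lists and rules were chosen with earlier results of these data known. Named were all members and, per related list, the 3 called genes of smallest p (or the 1 of smallest p where none was called). Also named were the 3 genes most like the called member of smallest p, and Insr, Igfbp1, Igfals, Irs1, Irs2 and Pappa. H19, also in that rule, was not matched in the deposited table under that symbol and so was not analysed. Symbols were matched as spelled, with the CCN genes under old and new names. Of 14 imprinted genes and regulators 11 matched, and of the other related lists every gene (Grb2 named 2 table rows). Of the marker lists, 6 of 7 endothelial and 4 of 6 skeletal muscle genes matched. Marker genes were named after their values were seen.

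Over all genes tested, nerves of 1 group differed by more than sampling noise (chi-square per degree of freedom 3.38 to 12.3), so each was kept as 1 sample. This was not computed for the members alone. Nothing states that same-numbered nerves came from 1 rat. The deviations of same-numbered nerves were hardly correlated, which cannot show how nerves were paired, since the numbers may not follow the rats. The p-values rest on the spread between these libraries, and whether it holds the full spread between rats is not known. The floor of 3 counts covers counting error only. No protein sequences were used here.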

Additional observations from a re-analysis of the deposited data

How the results depend on the processing

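Igfbp4 and Igfbp6 were lower with an adjusted p under 0.05 in all 12 alternatives, with log2 fold changes from -0.61 to -0.57 and from -0.60 to -0.50 and adjusted p up to 0.00048 and 0.0182. The counts of members called (2 lower, 0 higher, 0 by the limits of the study) were the same in every alternative. Across the 6 fits that each left out 1 nerve, the log2 fold change was -0.61 to -0.57 for Igfbp4, -0.60 to -0.50 for Igfbp6, -0.12 to -0.05 for Igf1r, -0.023 to 0.015 for Igf2r, -0.23 to 0.36 for Igfbp5 and -0.13 to 0.13 for Igfbp7. The sign of Igfbp5 turned without crushed nerve 3, and that of Igfbp7 without intact nerve 2 or crushed nerve 2. Igf2r, near 0, was positive with DESeq2 (3.1e-05), RLE factors (0.00049), library totals alone (0.015), no filter (0.00049) and limma on FPKM (0.015). Its level in crushed nerves was 90.3 FPKM and 89.8 as CPM per kilobase. Insr ranged from -0.047 to 0.0089 and was positive without intact nerve 1.

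Over all genes, 205 fell and 182 rose. With limma on FPKM 86 fell and 156 rose. Leaving out 1 nerve gave 75 to 174 that fell and 100 to 218 that rose: 119 fell without intact nerve 2, and without crushed nerves 1, 2 and 3 in turn 79, 75 and 90 fell and 100, 108 and 121 rose. By the limits of the study 27 to 35 were called without 1 nerve. Of the related genes, limma called 0 lower and 1 higher, and fits without 1 nerve 0 to 3 lower (0 without crushed nerve 1 or 2) and 1 to 3 higher (1 without intact nerve 3 or any crushed nerve). For all of these the cause was not tested.

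A paired fit, with the replicate block, gave 154 lower and 146 higher genes. Its log2 fold changes were -0.60 for Igfbp4 (adjusted p = 0.000289) and -0.55 for Igfbp6 (adjusted p = 0.00622), and Htra1 was no longer called (adjusted p = 0.0502); no other call changed among the members and the 10 related genes with a fold change. Calls of marker genes were not compared under the block. Deviations of same-numbered nerves had correlations of -0.0166 to 0.0750. Low counts limit Igfbp5, Igfbp7 and the ligands.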
